A study of Homo sapiens with 2 samples.

Results

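Cholesterol synthesis, sensing and uptake were followed through 29 genes of HepG2 cells, a human hepatocellular carcinoma line, among the 60623 gene entries counted by RNA sequencing. The rule for these genes, called members here, is a list of names by known role, with no measured value in it. The list was chosen with earlier results of these data known, so comparisons with other genes are descriptive. The members were matched from their Ensembl identifiers to their symbols. They fall into 4 subgroups: 8 enzymes from acetyl-CoA to squalene, 11 enzymes after squalene, 4 genes of SREBP2 control, and 6 genes of sterol trafficking and esterification. Of the 29 genes, 28 had at least 10 counts over both libraries and were compared with the other genes that did so, 20431 in all. INSIG1 was listed at 0 in both libraries.

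The series holds 2 libraries, 1 per group, both from wild-type HepG2 cells of the same recorded batch. The FFA group received 1 mM free fatty acids, oleic and palmitic acid in a 2:1 ratio bound to serum albumin, for 24 h as a model of steatosis. In the FFA + 9-cis-RA group, cells given the same fatty acids were exposed to 10 μM 9-cis-retinoic acid, a ligand of the RXR and RAR nuclear receptors, for 24 h. There was no group without fatty acids among these libraries, so every value is that of lipid-loaded cells of 1 tumor line. With 1 library per group there was no replicate check, no p-value could be given, and a difference between the cultures cannot be told apart from an effect of 9-cis-RA.

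Hepatocytes build cholesterol from acetyl-CoA through mevalonate, isoprenoid diphosphates, squalene and lanosterol. When sterols in the endoplasmic reticulum run low, the escort protein SCAP carries the membrane-bound factor SREBP2 to the Golgi, where proteases release its active part, which raises transcription of the synthesis enzymes. When sterols are plentiful, INSIG proteins hold SCAP back. Cholesterol that arrives by endocytosis leaves the lysosome through NPC2 and NPC1, and excess is esterified by SOAT enzymes.

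The FFA library held 60821539 fragments counted on genes and the FFA + 9-cis-RA library 57669670, and the 10 most abundant genes took 10.9% and 10.4% of them. The hepatocyte and hepatoma markers ALB, AFP, APOA1, APOB, FGB, HNF4A and GPC3 all had at least 465 counts in each library. Several of them differed between the libraries by more than the cholesterol genes did at their median, with log2 fold changes (FFA + 9-cis-RA over FFA) of -0.99 for AFP, -0.70 for ALB, -0.69 for GPC3 and 0.84 for FGB. HNF4A was at -0.14, APOA1 at 0.039 and APOB at 0.050, and the part of these differences in the results was not tested. Of 8 markers of other cell types, PTPRC of leukocytes and DCN of fibroblasts were at 0 in both. COL1A1 of fibroblasts (1 and 2 counts), CD68 and CD163 of macrophages (5 and 15, 34 and 24) and PECAM1 of endothelium (52 and 29) were low. VWF of endothelium (184 and 118) and ACTA2 of stellate and muscle cells (1186 and 773) had more, and their part in the results was not tested. The retinoid-induced gene CYP26A1 had 4 counts under FFA and 709 in the library labelled FFA + 9-cis-RA. Counts were divided by library size factors, and the log2 change is the log2 fold change of FFA + 9-cis-RA over FFA after a pseudocount of 1. The exact 95% interval of the log2 change covers counting error only. Where a pair of counts is given, the FFA library comes first. In bulk RNA, fewer cells that express a gene and less RNA per cell cannot be told apart.

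The promoter sequences of the members were searched for motif letters, because SREBP2 acts together with the factor NF-Y at many genes of this pathway. The part of these sequences in the transcript changes was not tested. RefSeq windows of GRCh38.p14, from 250 bases before to 50 bases after each transcript start, were found for 25 of the 29 members. Searched on both strands, the NF-Y box CCAAT was in the window of 19 of these 25 genes (76%), against 39.7% of the 27305 genes of the table and 43.6% of those with 1000 counts or more. The sterol regulatory element TCACNCCAC was in 1 member, SREBF2, and in 1.39% of all genes. Direct repeats of AGGTCA spaced by 1, 4 or 5 bases, 3 of the spacings known for RXR with its partners, were in none of the 25 windows and in at most 0.0293% of all genes. Other spacings were not searched. A match is a description of the letters and not a measured binding site. Only these exact letters were searched, so a window without a match is not read as lacking the element.

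The following stretches end before the transcript start both in RefSeq and in the deposited gene models, and capitals mark the 2 motifs, with CCAAT read on either strand. SREBF2 is shown for its adjacent element and box, and HMGCS1 and HSD17B7 as the 2 members with the lowest log2 change. MSMO1 is shown for its 3 boxes within 120 bases, and NPC1 as a higher member without either motif. In the order printed, the stretches lie at chr22:41832959-41833078 (plus strand), chr5:43313513-43313632 (minus strand), chr1:162790557-162790676 (plus strand), chr4:165327524-165327643 (plus strand) and chr18:23586532-23586651 (minus strand).
SREBF2: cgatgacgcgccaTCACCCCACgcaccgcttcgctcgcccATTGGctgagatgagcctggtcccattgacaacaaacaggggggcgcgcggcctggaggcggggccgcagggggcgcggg
HMGCS1: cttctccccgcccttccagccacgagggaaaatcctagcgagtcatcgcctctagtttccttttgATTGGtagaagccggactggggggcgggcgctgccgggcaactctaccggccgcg
HSD17B7: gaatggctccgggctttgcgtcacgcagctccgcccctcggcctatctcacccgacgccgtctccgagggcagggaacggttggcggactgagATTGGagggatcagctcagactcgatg
MSMO1: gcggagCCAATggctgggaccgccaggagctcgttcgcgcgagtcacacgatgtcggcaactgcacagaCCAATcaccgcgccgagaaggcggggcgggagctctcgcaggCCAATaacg
NPC1: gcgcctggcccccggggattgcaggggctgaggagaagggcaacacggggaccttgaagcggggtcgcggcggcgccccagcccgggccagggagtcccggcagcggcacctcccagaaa

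**Figure D1:**
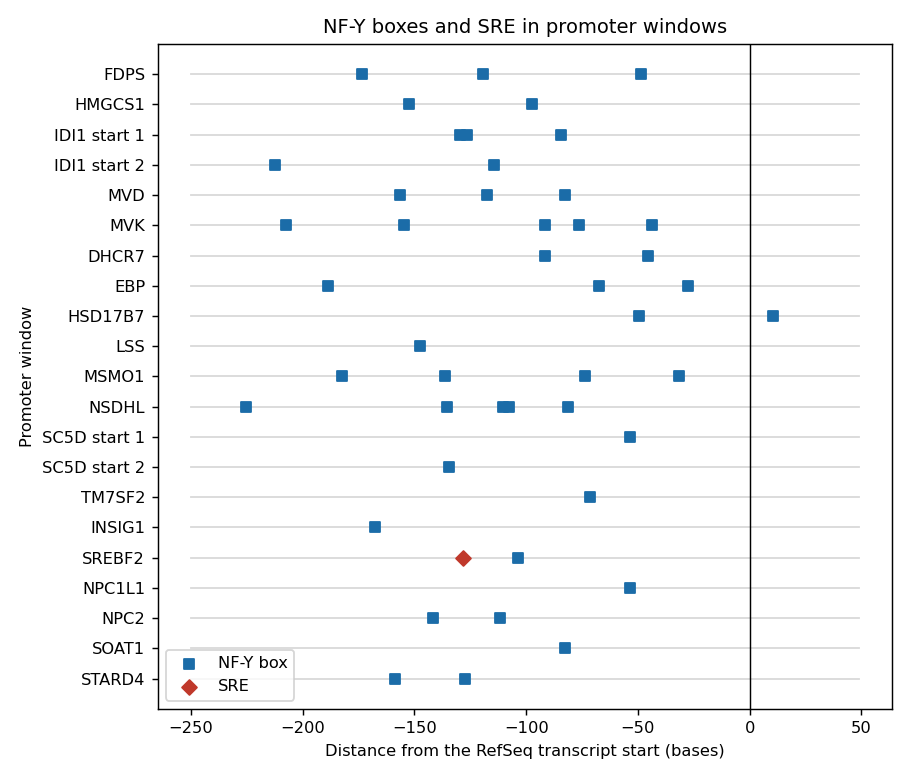
Position of the CCAAT box (blue squares, NF-Y box) and the sterol regulatory element (red diamond, SRE) in each promoter window that holds either, as distance in bases from the RefSeq transcript start at 0. The 1 match to the letters TCACNCCAC, in SREBF2, begins 133 bases before the start and stands beside a box that begins 106 bases before the start.

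Among the members compared, 17 of 20 lower genes with a window held a CCAAT box, and PMVK, INSIG2 and CYP51A1 did not. Of the 4 higher genes, DHCR7 held a box, whereas SCAP, NPC1 and LBR did not. These counts are few, and the direction of each gene rests on 1 library per group. Of the 12279 compared genes with a window, 42.2% held a box. This share was not split by direction, so no link between box and direction is read from the members.

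Across the 28 genes compared, transcripts of the cholesterol pathway were mostly lower in the FFA + 9-cis-RA library. Their median log2 change was -0.26, against -0.020 over all 20431 compared genes, and 24 were lower while 4 were higher. Of all compared genes, 52.3% were lower and 47.7% higher. The whole counting interval lay below 0 for 22 members, a share of 78.6% against a background of 25.7%, and above 0 for 3 members (10.7% against 22.5%). For 3 members, CYP51A1, LBR and STARD4, the interval included 0.

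The differences were small in size. Of the 28 genes, 10 were lower by more than 0.32 on the log2 scale (35.7%), where 21.7% of all compared genes were, and none was higher by more than 0.32 on the log2 scale, where 14.6% of all genes were. With TMM or total-count scaling, or with the trend on expression or length removed, 1 or 2 members passed on the higher side. No member passed 2-fold, a threshold that 8.28% of compared genes passed. The members were abundant transcripts, and 27 of the 28 had at least 1000 counts over both libraries. Among the 10298 genes of the series with that many counts, 48.7% were lower and 51.3% higher, with a median of 0.0062. The whole interval lay below 0 for 34.7% of them and above 0 for 34.4%. By more than 0.32, 9.73% were lower and 6.06% higher, and 0.864% passed 2-fold. Summed over the 28 genes, 188154 counts under FFA stood against 153990 under FFA + 9-cis-RA, a log2 ratio of -0.26 after scaling (95% interval -0.27 to -0.25).

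**Figure D2:**
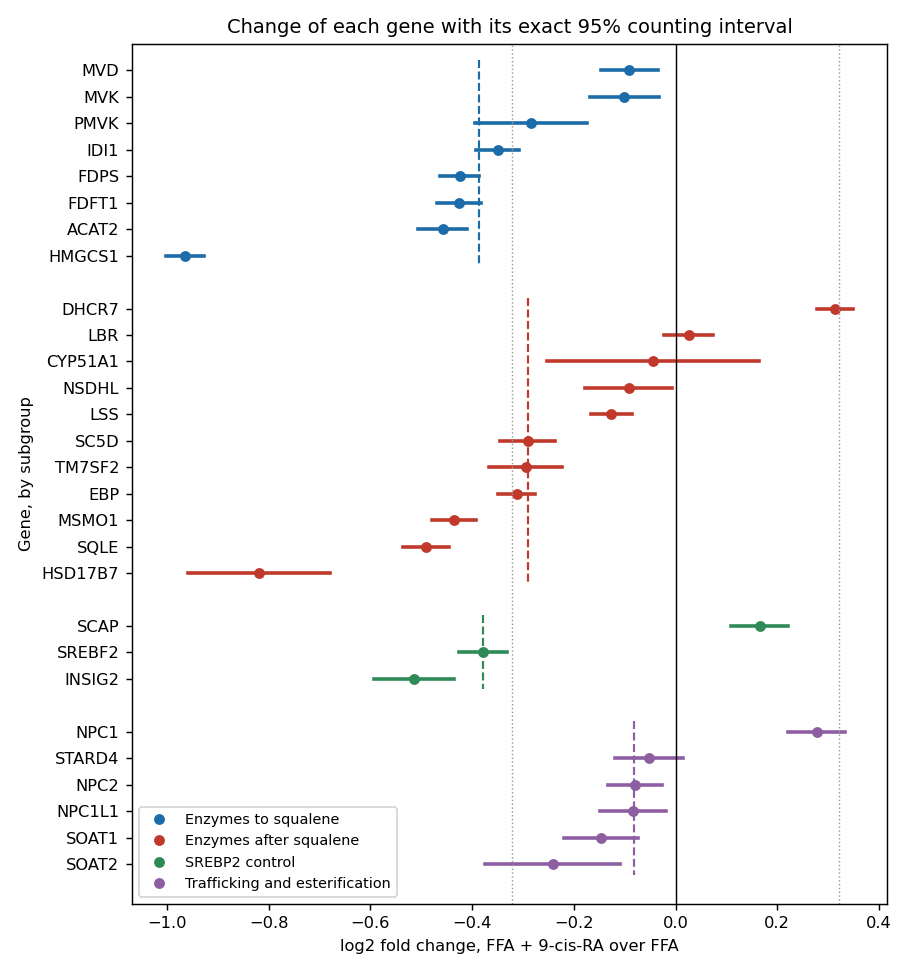
Log2 fold change of each of the 28 genes (points) with its exact 95% counting interval (bars), by subgroup, FFA + 9-cis-RA over FFA, 1 library each. Dashed lines mark subgroup medians (-0.39, -0.29, -0.38 and -0.081 from top to bottom) and dotted lines mark 0.32 on the log2 scale in either direction.

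The enzymes from acetyl-CoA to squalene all lay on the same side of 0. All 8 were lower in the FFA + 9-cis-RA library with the whole counting interval below 0, as were 34.7% of genes with 1000 counts or more. By more than 0.32 on the log2 scale, 5 of the 8 were lower, against 9.73% of genes with that many counts. The median log2 change of the 8 enzymes was -0.39. HMGCS1 (ENSG00000112972), which encodes the cytosolic HMG-CoA synthase, lies on chromosome 5 from 43287470 to 43313512 on the minus strand of GRCh38. It had 17513 counts under FFA and 8804 under FFA + 9-cis-RA, which after scaling is 0.512 of the FFA value and a log2 change of -0.96 (95% interval -1.0 to -0.93). HMGCS1 had the lowest log2 change of the members. Of the abundant genes, those with 1000 counts or more, 0.738% (76 genes, HMGCS1 among them) had a log2 change at least as low. The same held for 5.62% of all compared genes.

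ACAT2, FDPS, FDFT1 and IDI1 were lower to a lesser degree than HMGCS1. ACAT2, the cytosolic thiolase that makes acetoacetyl-CoA, was counted 8632 and 6164 times, for a log2 change of -0.46 (95% interval -0.51 to -0.41). FDPS, which makes farnesyl diphosphate, was counted 13296 and 9717 times, for a log2 change of -0.42 (95% interval -0.46 to -0.39). FDFT1, the squalene synthase at the first step committed to sterols, was counted 10569 and 7718 times, for a log2 change of -0.43 (95% interval -0.47 to -0.38). These 3 enzymes therefore had close to the same relative difference at unlike positions of the route. IDI1, which isomerizes isopentenyl diphosphate, was counted 10798 and 8311 times, for a log2 change of -0.35 (95% interval -0.39 to -0.31).

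The kinases and the decarboxylase between mevalonate and isopentenyl diphosphate differed least within this subgroup. PMVK, phosphomevalonate kinase, was counted 1511 and 1217 times, for a log2 change of -0.28. MVK, mevalonate kinase, was counted 3644 and 3334 times, for a log2 change of -0.10 (95% interval -0.17 to -0.032). MVD, the diphosphomevalonate decarboxylase, was counted 5351 and 4928 times, for a log2 change of -0.091 (95% interval -0.15 to -0.035). The ratio of HMGCS1 to MVK counts, which does not depend on library scaling, was 4.81 under FFA and 2.64 under FFA + 9-cis-RA. The log2 ratio of these ratios was -0.86 (95% interval -0.94 to -0.79, normal approximation for counting error). This pair and the other ratios of genes given here were chosen after the values were seen.

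The enzymes after squalene were spread more widely, from -0.82 to 0.31, around a median of -0.29. Of the 11 genes, 9 were lower and 2 were higher, and the whole counting interval lay below 0 for 8 and above 0 for 1. Of all compared genes, 52.3% were lower, and the interval lay below 0 for 25.7% and above 0 for 22.5%. Of the abundant genes, the interval lay below 0 for 34.7% and above 0 for 34.4%. SQLE, the squalene epoxidase and a control point of the sterol branch, was counted 9650 and 6739 times, for a log2 change of -0.49 (95% interval -0.54 to -0.45). LSS, which closes the sterol rings to give lanosterol, was counted 10599 and 9529 times, for a log2 change of -0.13. Consecutive enzymes thus differed by unequal amounts.

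Removal of the C4 methyl groups of lanosterol uses MSMO1, NSDHL and HSD17B7. HSD17B7 (ENSG00000132196), the 3-ketosteroid reductase of this complex, on chromosome 1 from 162790702 to 162812817 (plus strand), had 1178 and 655 counts. Its log2 change was -0.82 (95% interval -0.96 to -0.68), the lowest after HMGCS1. Its pseudogene HSD17B7P2 had 120 and 103 counts, and reads that map to both were not counted. MSMO1, the methylsterol oxidase, was counted 10054 and 7292 times, for a log2 change of -0.44 (95% interval -0.48 to -0.39). NSDHL, the decarboxylating dehydrogenase, was counted 2282 and 2100 times, for a log2 change of -0.092 (95% interval -0.18 to -0.0061). HSD17B7 over NSDHL was 0.516 under FFA and 0.312 under FFA + 9-cis-RA, so the partners of this step did not keep 1 ratio.

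TM7SF2 and LBR encode proteins with the same sterol C14 reductase activity, and LBR is also a lamin receptor of the inner nuclear membrane. TM7SF2 was counted 3523 and 2817 times, for a log2 change of -0.29 (95% interval -0.37 to -0.22). LBR was counted 7041 and 7034 times, for a log2 change of 0.026 with an interval that included 0 (-0.022 to 0.074). The ratio of TM7SF2 to LBR was 0.50 under FFA and 0.40 under FFA + 9-cis-RA, a log2 ratio of -0.32 (95% interval -0.41 to -0.24).

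The last steps differed in direction. EBP, the sterol isomerase, was counted 14430 and 11398 times, for a log2 change of -0.31 (95% interval -0.35 to -0.28). SC5D, the C5 desaturase that makes 7-dehydrocholesterol, was counted 6205 and 4977 times, for a log2 change of -0.29 (95% interval -0.34 to -0.24). DHCR7 (ENSG00000172893), which reduces 7-dehydrocholesterol to cholesterol, lies on chromosome 11 from 71428193 to 71452868 (minus strand) and went the other way. It had 11914 counts under FFA and 14525 under FFA + 9-cis-RA, for a log2 change of 0.31 (95% interval 0.28 to 0.35), the highest of the 28 genes. The ratio of SC5D to DHCR7 was 0.521 under FFA and 0.343 under FFA + 9-cis-RA.

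CYP51A1, the lanosterol demethylase, had the fewest counts and the widest interval of the 28 genes. At 391 and 372 counts its log2 change was -0.044, and the interval ran from -0.25 to 0.16. Another annotated gene, ENSG00000285772, shares its strand and covers 80.6% of its exonic bases, and reads that overlap both were not counted. For EBP the same kind of overlap, with ENSG00000286268, covers 36.4% of the exonic bases. Without CYP51A1, EBP, TM7SF2 and NPC2, the 4 members with any same-strand overlap, the median of the enzymes after squalene was -0.21 and that of all members was still -0.26.

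**Figure D3:**
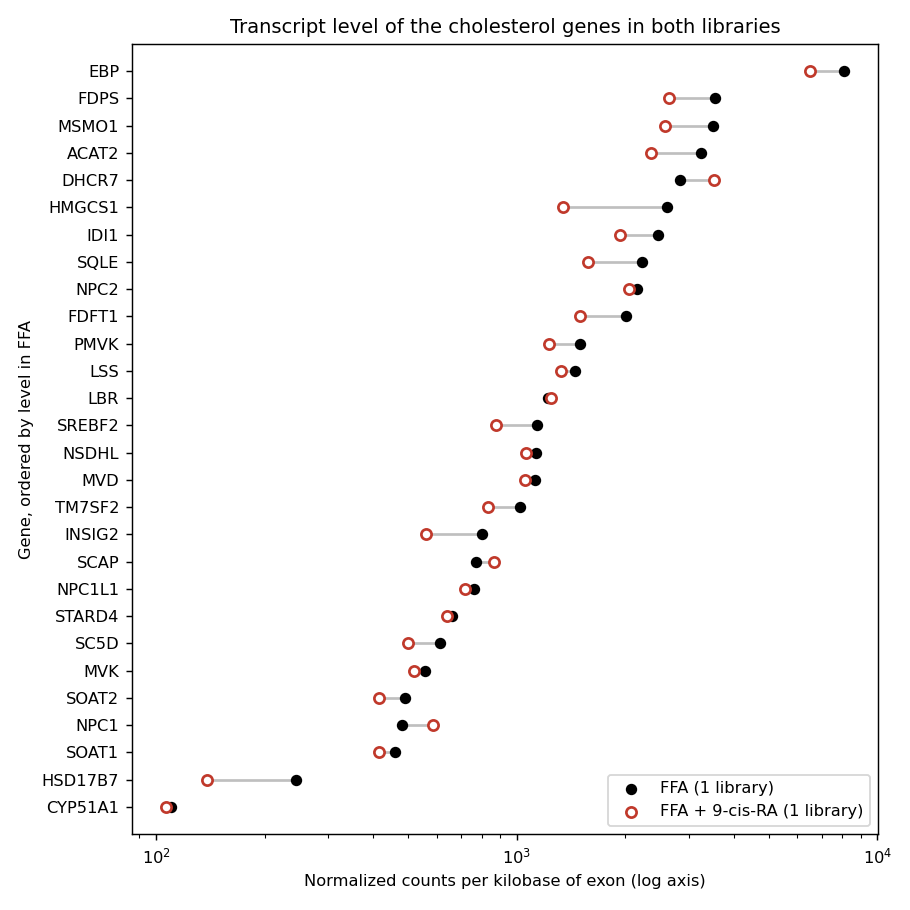
Level of each of the 28 genes as normalized counts per kilobase of exon (horizontal log axis) in the FFA library (black) and the FFA + 9-cis-RA library (open red), 1 library each, ordered by the FFA level. Most open points lie to the left of the black ones, and DHCR7, SCAP, NPC1 and, by a small margin, LBR lie to the right.

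Per kilobase of exon, EBP had the highest level of the 28 genes, with 8084 normalized counts per kilobase under FFA and 6509 under FFA + 9-cis-RA. In the FFA library it was followed by FDPS at 3542, MSMO1 at 3492, ACAT2 at 3240 and DHCR7 at 2837 normalized counts per kilobase. In the FFA + 9-cis-RA library DHCR7 stood second at 3525, and HMGCS1 went from 2617 and rank 6 to 1341 and rank 10. INSIG2 also went down by 4 ranks, from 18 to 22, and NPC1 went up by 4, from 25 to 21. At the low end were HSD17B7 at 244 and 138 and CYP51A1 at 110 and 106 normalized counts per kilobase. The CYP51A1 level is divided by all its exonic bases, although reads over the 80.6% shared with ENSG00000285772 were not counted, so its last place is not read as a low level of the transcript. The level in the FFA library and the log2 change had a Spearman rho of -0.35 over the 28 genes, which share both libraries and the FFA count.

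The SREBP2 control genes went in both directions. SREBF2 (ENSG00000198911), which encodes SREBP2, lies on chromosome 22 from 41833079 to 41907307 (plus strand) and had 8674 and 6545 counts. Its log2 change was -0.38 (95% interval -0.43 to -0.33). SCAP, the escort protein, was counted 4885 and 5376 times, for a log2 change of 0.17 (95% interval 0.11 to 0.22). INSIG2, an endoplasmic reticulum protein that retains SCAP, was counted 3189 and 2191 times, for a log2 change of -0.51 (95% interval -0.59 to -0.43). The ratio of INSIG2 to SCAP was 0.653 under FFA and 0.408 under FFA + 9-cis-RA, a log2 ratio of -0.68 (95% interval -0.78 to -0.58).

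INSIG1 (ENSG00000186480), the INSIG gene that is itself a well-known SREBP target, lies on chromosome 7 from 155297776 to 155310235 (plus strand) and was listed at 0 in both libraries. The upper limit for such a zero is 3 counts, which corresponds to 0.0493 CPM under FFA and 0.0520 CPM under FFA + 9-cis-RA. No other gene of the deposited annotation overlaps its exons. It lies in an unbroken run of 11 entries with 0 counts in both libraries, from 155222903 to 155555450. Farther out on either side, PAXIP1 had 2920 and 2971 counts and RBM33 had 5282 and 5632. The cause of this run was not tested, and the zero is not read as absence of the transcript.

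The trafficking and esterification genes had the median nearest to 0 of the 4 subgroups, at -0.081. None of the 6 was past 0.32, where 9.73% of the abundant genes were lower and 6.06% higher by more than that. With total-count scaling the median was -0.032, and NPC1 passed the threshold at 0.33. Of the 6 genes, 5 were lower and 1 was higher, against 48.7% and 51.3% of the abundant genes. NPC1 (ENSG00000141458), the lysosomal membrane protein that exports cholesterol, lies on chromosome 18 from 23506184 to 23586506 (minus strand) and was the higher one. It had 4724 counts under FFA and 5619 under FFA + 9-cis-RA, for a log2 change of 0.28 (95% interval 0.22 to 0.33). Its soluble partner NPC2 was counted 5990 and 5562 times, for a log2 change of -0.079 (95% interval -0.13 to -0.026). The ratio of NPC1 to NPC2 was 0.789 under FFA and 1.01 under FFA + 9-cis-RA, a log2 ratio of 0.36 (95% interval 0.28 to 0.43).

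The uptake, carrier and storage genes were all lower, by small amounts, where 48.7% of the abundant genes were lower. The log2 changes of NPC1L1 and STARD4 lay between the quartiles of the abundant genes, -0.14 and 0.13. NPC1L1, the surface protein of sterol uptake that ezetimibe blocks, was counted 4029 and 3731 times, for a log2 change of -0.083 (95% interval -0.15 to -0.019). STARD4, a cytosolic sterol carrier, was counted 3801 and 3597 times, for a log2 change of -0.052 with an interval that included 0 (-0.12 to 0.014). SOAT1, the broadly expressed acyltransferase that esterifies cholesterol, was counted 3252 and 2884 times, for a log2 change of -0.15. SOAT2, its liver and intestine counterpart, was counted 1029 and 854 times, for a log2 change of -0.24 (95% interval -0.37 to -0.11). The ratio of SOAT1 to SOAT2 was 3.16 under FFA and 3.38 under FFA + 9-cis-RA, and the interval of its log2 ratio included 0 (-0.054 to 0.25).

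Compared with each other, the subgroups differed in their medians. The median of the enzymes to squalene minus that of the enzymes after squalene was -0.097, and minus that of the SREBP2 control genes it was -0.0087. The differences to the trafficking and esterification genes were -0.31 for the enzymes to squalene, -0.21 for the enzymes after squalene and -0.30 for SREBP2 control. The place of the enzymes after squalene between the other subgroups depended on the genes and scale used. Without the members that overlap another gene on the same strand, the enzymes to squalene minus those after it gave -0.18, and those after it minus trafficking gave -0.12. With the length trend removed these differences were -0.14 and -0.15. The 19 enzymes together had a median of -0.29, and the 9 control and trafficking genes compared had one of -0.083. On summed counts the log2 ratio was -0.48 for the enzymes to squalene (95% interval -0.50 to -0.46), -0.17 for the enzymes after squalene (-0.18 to -0.15), -0.22 for SREBP2 control (-0.25 to -0.19) and -0.0094 for trafficking (-0.036 to 0.017). The SREBP2 control subgroup rests on 3 genes, and no test of the differences between subgroups was possible.

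**Figure D4:**
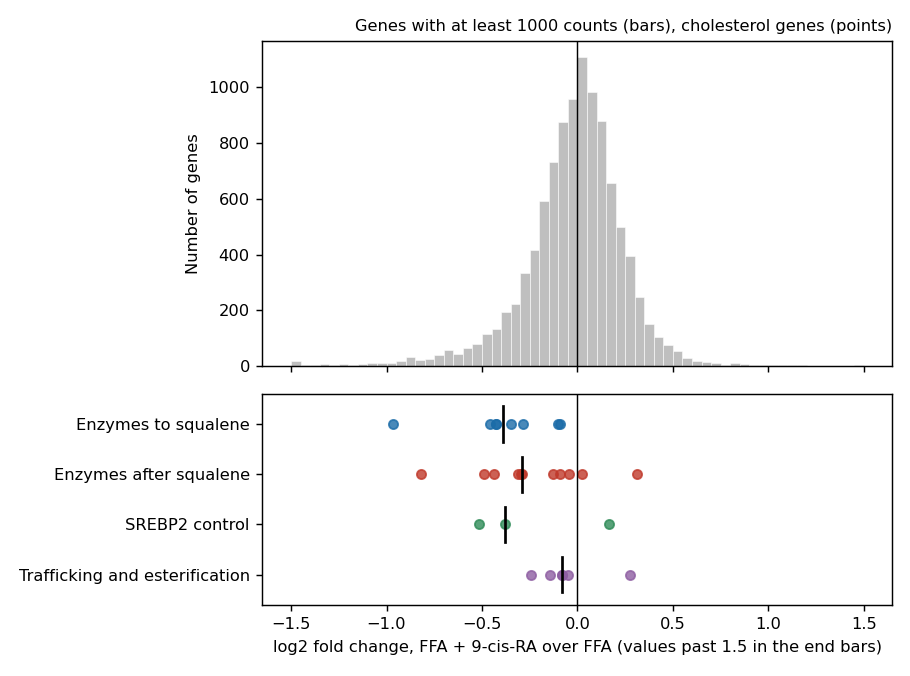
Upper panel, number of abundant genes (1000 counts or more in all) per bin of log2 change (bins of 0.05, values past 1.5 in the end bars). Lower panel, the 28 cholesterol genes by subgroup on the same axis, with black lines at the subgroup medians, of which -0.39 for the enzymes to squalene is the lowest and -0.081 for trafficking is the nearest to 0.

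Genes next to the pathway were split between lower and higher. Of a list of 31 neighbouring genes, 30 were compared, and 14 were lower and 16 were higher, with a median log2 change of 0.035. PAQR3, a Golgi protein that binds SCAP, passed 0.32 with 1566 and 2060 counts, for a log2 change of 0.42 (95% interval 0.33 to 0.52). The 9 genes of the isoprenoid branches toward dolichol, ubiquinone and prenylated proteins had a median of -0.11, with 7 lower and 2 higher and none past 0.32.

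Among transport genes and enzyme partners, TMEM97, a sterol-regulated membrane protein that binds NPC1, was counted 9386 and 7227 times, for a log2 change of -0.35 (95% interval -0.39 to -0.31). GRAMD1B, a sterol carrier between plasma membrane and endoplasmic reticulum, was counted 1094 and 520 times, for a log2 change of -1.04 (95% interval -1.20 to -0.89). POR, the reductase that gives electrons to CYP51A1, SQLE and other oxygenases, was counted 21786 and 30308 times, for a log2 change of 0.50 (95% interval 0.48 to 0.53). FAXDC2, a relative of the sterol oxidases, was counted 216 and 85 times, for a log2 change of -1.31 (95% interval -1.70 to -0.95). The 8 transport genes compared had a median of -0.0058 and the 5 partners one of -0.21.

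The fatty acid synthesis genes, which are also SREBP targets, lay mostly on the other side of 0. Of 8 listed genes, 7 were compared, of which 5 were higher and 2 lower. Their median log2 change was 0.58, and the median of the cholesterol genes minus it was -0.84. FASN, SCD and ACACA, which make and desaturate fatty acids, had log2 changes of 0.58, 0.83 and 0.72. ELOVL6, which elongates them, went the other way at -0.37. The regulator SREBF1, at 1.52, differed most from SREBF2: the ratio of SREBF1 to SREBF2 counts was 0.378 under FFA and 1.41 under FFA + 9-cis-RA. The log2 ratio of these ratios was 1.90 (95% interval 1.82 to 1.97), so the transcript of the fatty acid regulator passed that of the cholesterol regulator in raw counts.

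**Figure D5:**
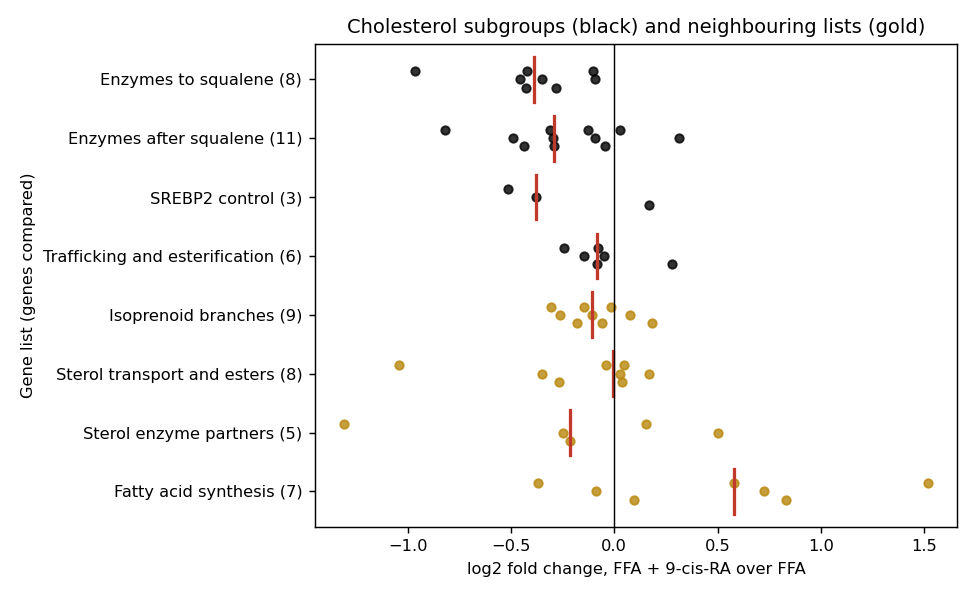
Log2 fold change of each gene (points) by list, with the cholesterol subgroups in black, red lines at the medians and the number of genes compared in parentheses. In gold are the isoprenoid branches, transport genes, enzyme partners and fatty acid synthesis genes. The neighbouring genes of SREBP processing and sterol sensing, PAQR3 among them, are not drawn. The 8 enzymes to squalene all lie below 0, whereas 5 of the 7 fatty acid synthesis genes lie above 0.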

How the data were processed

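The authors deposited raw counts of fragments per gene, made with featureCounts version 2.0.1 on exons by gene identifier. Per the file headers, read pairs with both ends mapped were counted on the reverse strand (strand setting 2) after a check of fragment length, and by default, multi-mapping reads and reads assigned to more than 1 gene were left out. Poly(A) RNA had been made into stranded libraries, and the submitters' processing notes name GRCh38 and DESeq2. The aligner and the annotation release are not given in the sources used here.

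Of the 60623 entries, 60295 had an entry in the table of gene symbols and 58516 an identifier in GENCODE release 29, used for gene types. Size factors came from DESeq2 version 1.42.0, with TMM factors of edgeR version 4.0.16 in R version 4.3.3 as an alternative. The log2 fold change used a pseudocount of 1 over genes with at least 10 counts in all, and a pseudocount understates the change of low genes. Exact 95% intervals (Clopper-Pearson share of a gene's counts) used Python 3.11.15, numpy 2.4.6, scipy 1.17.1 and pandas 2.3.3, loess trends (span 0.3) statsmodels 0.14.6, and plots matplotlib 3.10.9. Intervals and the floor of 3 counts cover counting error only, and no statistical test was possible with 1 library per group. The steps were tested on simulated counts that held counting error only, so variation between cultures was not checked. Alternatives were other scaling, pseudocounts of 0.1 and 5, no minimum and minimums of 50 and 1000 counts, removal of trends on expression and length, protein-coding genes only, and members without same-strand overlap.

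The members, lists and subgroups were chosen with earlier results of these data known. All 29 members are named, and from the neighbouring lists the genes past 0.32 (log2), SREBF1 and CYP26A1, unless said otherwise. Promoter windows came from RefSeq (GRCh38.p14). For the 25 members with a window, the bases after the start were found in a GENCODE transcript of the gene on its strand. Some genes of the pathway are not reported here.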

Additional observations from a re-analysis of the deposited data

How the results depend on the processing

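Under the 11 alternatives tried, the median of the cholesterol genes stayed between -0.28 and -0.17, and all 4 subgroup medians stayed below 0. With total-count scaling, which raises every log2 fold change by 0.049, the median was -0.34 for the enzymes to squalene, -0.33 for SREBP2 control and 0.63 for fatty acid synthesis, and 2 members were higher by more than 0.32. With TMM the fatty acid median was 0.60 and 1 member was higher by more than 0.32, as was 1 with the expression trend removed (fatty acid median 0.65) and 1 with the length trend removed (0.55). The median of the enzymes after squalene was -0.21 with the length trend removed and -0.21 without same-strand overlap. Without a count minimum the fatty acid median was 0.51, and 23.0% of all genes were higher by more than 0.32. With at least 1000 counts, 9.73% of genes were lower and 6.06% higher by more than 0.32. The difference between the enzymes to squalene and SREBP2 control turned from -0.0087 to 0.049 with the length trend removed, and CYP51A1 turned from -0.044 to 0.0049 with total counts. Of 152 values of 38 single genes under the 4 scaling and trend alternatives, 120 stayed within their counting interval and 32 did not; the filters leave single-gene values as they are. Beyond the construction of each alternative, the cause was not tested. No paired analysis was possible because each group holds 1 library.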

Other observations

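Genes on the strand opposite to a member were counted apart by the stranded protocol. TCP1, which covers 17.2% of the exonic bases of ACAT2 on the other strand, had 20265 counts under FFA and 20006 under FFA + 9-cis-RA, while ACAT2 had 8632 and 6164. MMAB, a cobalamin enzyme gene whose exons cover 3.47% of those of its neighbour MVK, had 2668 and 2184 counts, against 3644 and 3334 for MVK. The pseudogenes with the most counts beside HSD17B7P2 were FDPSP1 with 57 and 38 counts and CYP51A1P2 with 50 and 37. These genes were named after their values were seen.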
